A study of Arabidopsis thaliana with 4 samples.

Results

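Dirigent-like genes form a family of 26 genes in the RefSeq annotation of Arabidopsis thaliana, and the 10 described here are AT4G11190, AT4G38700, AT4G13580, AT4G11210, AT5G42655, AT2G21100, AT3G13650, AT5G42500, AT3G24020 and AT3G55230, out of 27654 genes in the deposited table. Among the family genes with a mean normalised read count of at least 10, they had the largest falls in fip1-2 seedlings. They were chosen for these falls, by a rule that names no such filter. Their differences between the groups are therefore a description, with no test. Just inside the choice stood AT3G55230 with a log2 fold change of -0.47. The next family gene with a mean of at least 10 was DIR5 (AT1G64160) at -0.38.

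Dirigent proteins are secreted proteins without an oxidising centre of their own. Oxidases such as laccases and peroxidases turn monolignols into radicals, and a dirigent protein holds these radicals so that they couple in one orientation, which gives lignans such as pinoresinol of a defined handedness. DIR5 and DIR6 of Arabidopsis act in this way, while ESB1, a further member of the family, is needed for the lignin ring of the root endodermis called the Casparian strip. The same monolignols are the building blocks of lignin, so the genes that make and oxidise monolignols are given below beside the family. All 10 genes carry the dirigent domain in the annotation. Of its process terms, only lignan synthesis and defence were looked up. It gives both to 4 of the 10, defence without lignan synthesis to 3 and neither to the other 3. It gives none of the 10 a name.

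Polyadenylated RNA of whole seedlings of the Columbia ecotype was sequenced, with 2 libraries of a control line and 2 of fip1-2. The control line carried SKP2B::GUS, the GUS reporter enzyme under the promoter of SKP2B, and the labels do not say whether fip1-2 carried it too, nor what kind of mutation fip1-2 is. FIP1 is a subunit of the complex that cuts messenger RNA precursors and adds their poly(A) tails, and the seedlings of both groups grew in Murashige and Skoog medium for a time whose unit the labels leave out. The libraries held 20874114 to 21104606 reads assigned to genes. The transcript of FIP1 itself (AT5G58040) was higher in fip1-2: the control libraries held 1796 and 1912 normalised read counts and the mutant libraries 5217 and 5145. Such a gene total is no check on the mutation itself.

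Values are normalised read counts as deposited, given per library or as mean ± SD with n = 2 per group. Log2 fold changes are differences of log2(value + 2), fip1-2 minus control, with their standard error (SE). Where a test is named, it is limma's two-sided test with Benjamini-Hochberg adjustment over the 19931 genes whose mean reached 10, and a call is an adjusted p under 0.05. The fit called 53.8% of these genes, 26.8% as lower and 27.0% as higher, so a call by itself was common. Separate cultures are not mentioned in the labels, and the p-values measure only the spread between these libraries, which may be technical. Whole seedlings are a mixture, in which fewer cells of a type and less RNA per cell cannot be told apart.

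The 10 genes together stood at 3438 and 3378 normalised read counts in control and at 1818 and 1792 in fip1-2. The remaining 16 family genes summed to 3174 and 3154 in control and to 2881 and 2890 in fip1-2. The 10 thus made up 52.0% and 51.7% of the family's counts in control and 38.7% and 38.3% in the mutant. Their log2 fold changes ran from -2.12 to -0.47 with a median of -1.36, beside a median of -0.004 over all genes tested. In all 10, both fip1-2 libraries lay below both control libraries, an order found in 39.0% of all genes tested, while the opposite order was found in 38.2%.

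**Figure D1:**
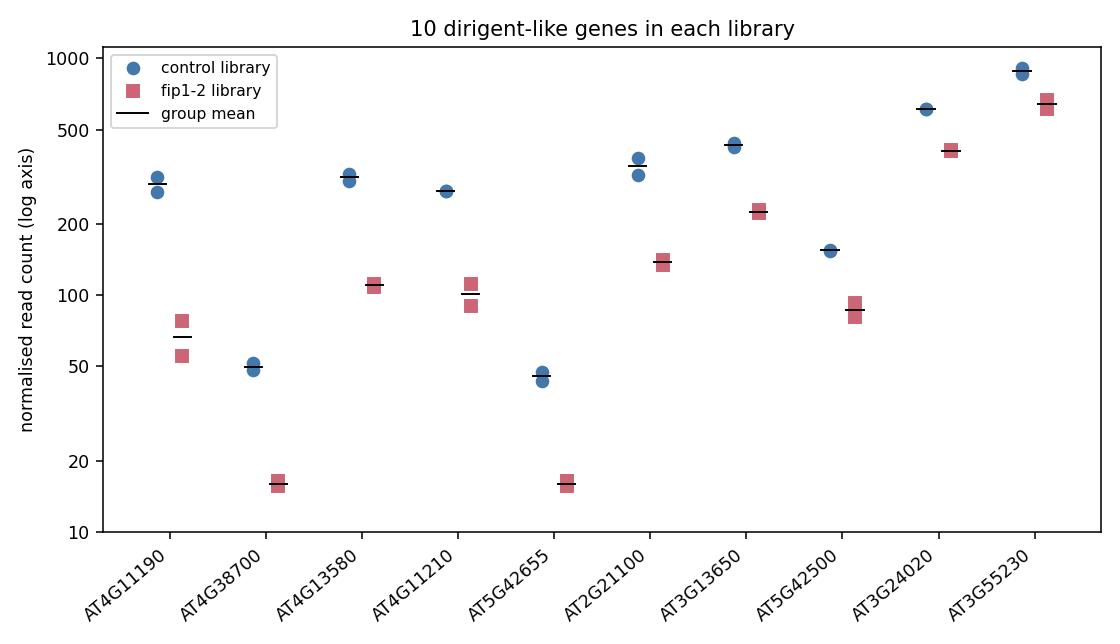
Normalised read count (log axis) of the 10 dirigent-like genes in each library; circles are the 2 control libraries, squares the 2 fip1-2 libraries, and lines the group means. In every gene the fip1-2 squares sit below the control circles, by the widest gap in AT4G11190 (272 and 314.5 against 55.3 and 77.8).

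Among the 4 genes annotated for lignan synthesis, AT4G11190 had the largest difference of the 10. It stood at 272 and 314.5 in the control libraries and at 55.3 and 77.8 in those of fip1-2. The mutant kept 22.7% of the control mean (log2 fold change -2.12 ± 0.16 SE). The groups were far apart, although the SD of the mutant libraries, 15.9 around a mean of 66.6, was the widest relative to its mean among the 10. AT4G11210, its neighbour on chromosome 4, stood at 276 and 275 in control and at 90.1 and 111 in fip1-2, 2.74-fold lower (-1.44 ± 0.13 SE). Its control libraries were nearly equal, and both mutant libraries lay under them by a wide margin.

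AT2G21100, on chromosome 2, stood at 379 and 321 in control and at 134 and 141 in fip1-2, 2.54-fold lower (log2 fold change -1.33 ± 0.11 SE). Here the spread lay in the control group, and the mutant libraries were close together. It is the only one of the 10 with an annotated intron. AT3G13650, on chromosome 3, had a smaller difference, with 423 and 439 in control and 222 and 228 in fip1-2, which left 52.3% of the control mean (-0.93 ± 0.09 SE). Both groups were tight and did not overlap.

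The 3 genes annotated for defence but not for lignan synthesis differed more among themselves. AT4G38700 was weakly expressed, at 48.0 and 51.4 in control and at 16.4 and 15.6 in fip1-2 (log2 fold change -1.52 ± 0.25 SE). Its mutant values rest on 16 and 15 reads, so its SE was among the widest of the 10. AT3G55230 had the highest counts of the 10 and the smallest difference, with 908 and 861 in control and 669 and 609 in fip1-2 (-0.47 ± 0.07 SE), which left 72.3% of the control mean.

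AT5G42500 stood at 154 and 155 in control and at 92.2 and 81.0 in fip1-2 (log2 fold change -0.82 ± 0.14 SE). Its level is uncertain, because its coding sequence is 93.3% identical to that of AT5G42510, with an identical run of 77 bases, and the counting could split reads between them. AT5G42510 was at 138 and 179 in control and at 295 and 186 in fip1-2, so the lower mutant library was close to the higher control library. Summed, the pair had 292 and 334 counts in control and 387 and 267 in the mutant, and the groups overlapped. The share of the pair's counts given to AT5G42500 went from 49.4% to 26.5%.

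The 3 genes annotated for neither lignan synthesis nor defence held both a large and a moderate difference. AT4G13580 stood at 326 and 303 in control and at 112 and 108 in fip1-2, 2.86-fold lower (log2 fold change -1.50 ± 0.11 SE). Its closest relative in the family is AT3G24020, with 83.5% identity of the coding sequences and an identical run of at most 32 bases. AT3G24020 stood at 610.1 and 610.6 in control and at 411 and 405 in fip1-2, which left 66.8% of the control mean (-0.58 ± 0.07 SE). The replicates of both genes were close to each other, and the difference was the larger one in the weaker of these relatives. The annotation places a long noncoding RNA on the opposite strand of each, over 85.0% of AT3G24020 and 24.6% of AT4G13580. With no strand step described, reads from those transcripts could not be told apart from theirs.

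AT5G42655 stood at 43.2 and 47.6 in control and at 16.4 and 15.6 in fip1-2, 2.84-fold lower (log2 fold change -1.40 ± 0.26 SE). Like AT4G38700, it had 16 and 15 reads in the mutant libraries. Its coding sequence aligned with no other family gene over 300 bases, and its longest identical run with any of them was 14 bases. It lies next to AOS (AT5G42650), the allene oxide synthase gene of jasmonate synthesis, which was at 4750 and 6179 in control and at 4921 and 4572 in fip1-2 and was not called (-0.19 ± 0.09 SE, limma adjusted p = 0.0788). AOS was called as lower without control replicate 1 (-0.38, limma adjusted p = 7.51e-09), under quantile normalization (-0.28, limma adjusted p = 0.0222) and with the replicate block (limma adjusted p = 0.00247).

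Levels between genes were compared per kb of the longest annotated transcript. In control, AT3G55230 led with 762 ± 28.6 normalised read counts per kb, followed by AT3G24020 with 664 ± 0.356. Next came AT3G13650 at 386 ± 10.1, AT4G11190 at 365 ± 37.5, AT2G21100 at 332 ± 38.4, AT4G13580 at 329 ± 16.9 and AT4G11210 at 324 ± 0.867, neighbours that did not differ beyond their spread. AT5G42500 followed at 161 ± 1.17, and AT5G42655 and AT4G38700 came last at 52.2 ± 3.52 and 46.5 ± 2.25. In fip1-2 the first 3 and the last 2 places were the same, from 551 ± 36.4 per kb for AT3G55230 down to 14.9 ± 0.544 for AT4G38700. AT4G11190 went from place 4 to place 8, at 82.9 ± 19.8 per kb, although it did not differ there beyond its spread from AT5G42500 at 90.5 ± 8.31. The labels differ on whether the reads were tags at the poly(A) end, for which division by length would not be right. By undivided counts AT4G11190, with 293 in control, stood below AT2G21100 with 349.9 and AT4G13580 with 314 in that group already.

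The 10 transcripts are short. Their annotated lengths run from 803 to 1160 bases with a median of 956, and 10.8% of the genes tested have a shorter one. Over all genes the log2 fold change followed transcript length, and the fitted trend stood between -0.24 and -0.15 at the lengths of the 10. With the trend removed, the median of the 10 was -1.16, and the values ran from -1.89 for AT4G11190 to -0.32 for AT3G55230. Relative to its own value, AT3G24020 lost most, going from -0.58 to -0.37. The part of length in the lower counts was not tested further. Of the 10, 9 have no intron, as do 13 of the 16 other family genes.

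**Figure D2:**
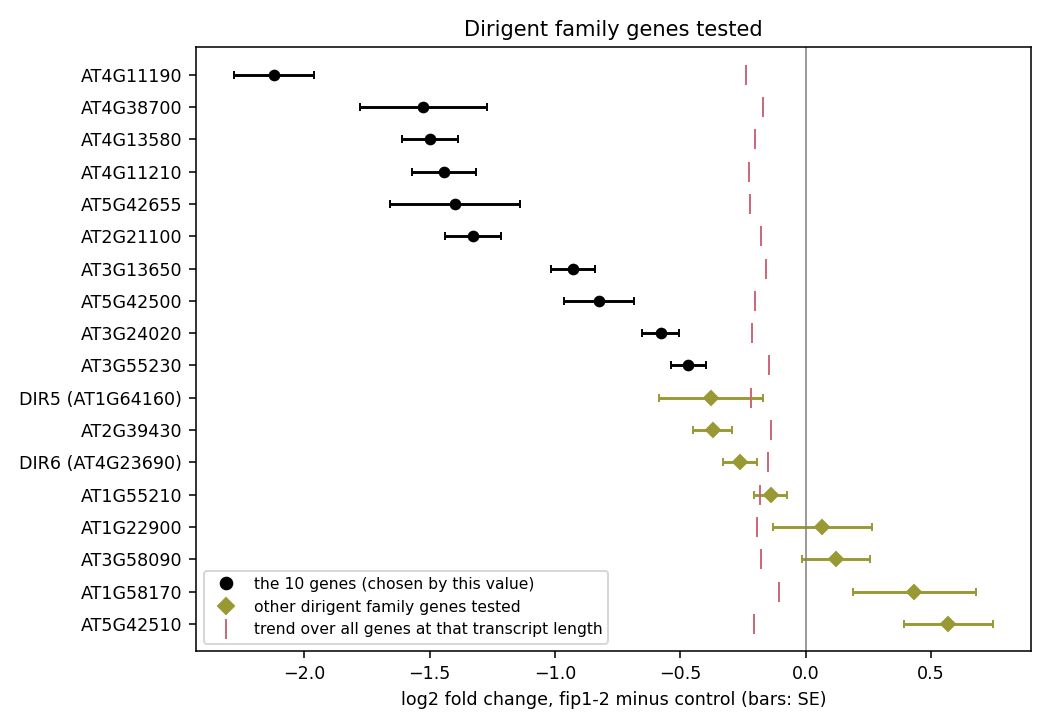
Log2 fold change, fip1-2 minus control, of the 18 dirigent family genes tested, with bars for the SE; black circles are the 10 genes, which were chosen by this value, diamonds the 8 others, and red ticks the trend over all genes at each transcript length. The 10 run from -2.12 (AT4G11190) to -0.47 (AT3G55230), and the other 8 from -0.38 (DIR5) to 0.57 (AT5G42510).

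Of the 16 other family genes, 8 passed the filter. Since the 10 with the largest falls were taken out, the values of the rest are by choice smaller, and their counts are a description. Lower calls were made for 2 of the 8 and a higher call for 1, beside 26.8% and 27.0% of all genes. Their log2 fold changes had a median of -0.04. The lower calls were AT2G39430 and DIR6 (AT4G23690), which directs pinoresinol formation. AT2G39430 had 639 and 589 counts against 495 and 454 (log2 fold change -0.37 ± 0.08 SE). On its opposite strand the annotation places an antisense RNA over 93.6% of its length and AT2G39435 over 9.96%. With no strand step described, reads from those transcripts could not be told apart from its own. DIR6 had 683 and 677 counts against 573 and 559 (-0.26 ± 0.07 SE). DIR6 lost its call with DESeq2 (adjusted p = 0.0641) and with the length trend removed (limma adjusted p = 0.177). DIR5, the other pinoresinol gene, stood at 64.4 and 52.4 in control and at 47.1 and 41.5 in fip1-2, without a call (limma adjusted p = 0.136).

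AT2G39430 is the closest relative of AT3G55230, with 78.6% identity of the coding sequences, and the log2 fold changes of this pair, -0.37 and -0.47, differed by less than their SEs added together. The higher call, AT5G42510, rested on 1 library. Without fip1-2 replicate 1 its log2 fold change of 0.57 was 0.24 (limma adjusted p = 0.269), and it was not called by DESeq2 (adjusted p = 0.214), under robust variance estimation (limma adjusted p = 0.15) or without the filter (limma adjusted p = 0.108). AT1G58170 and AT3G58090 had the next highest log2 fold changes, 0.43 and 0.12, and neither was called. Without control replicate 2, AT1G58170 was called at 0.80 (limma adjusted p = 0.00595). AT1G55210 had the highest level of the family, 1346 ± 36.4 normalised read counts per kb in control against 1224 ± 111 in the mutant. It was not called (log2 fold change -0.14 ± 0.07 SE, limma adjusted p = 0.0866), but it was without control replicate 2 (-0.17, limma adjusted p = 0.044) and without fip1-2 replicate 2 (-0.23, limma adjusted p = 0.0197).

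The 8 family genes under the filter were at or near 0. AT1G07730, AT3G13662, AT4G11180 and AT5G49040 had no read in any library, which allows up to 3 reads in each. ESB1 (AT2G28670) had 6 and 6 reads in control and 3 and 4 in fip1-2. In the annotation 84.6% of ESB1 overlaps AT2G28671 on the opposite strand, which is listed at 0 in all libraries, and all of AT1G07730 and of AT5G49040 lies within another gene. The sources used here do not say how reads in overlaps were counted, so the low counts of these 3 genes do not show that their transcripts were scarce.

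The chromosomal position of the 10 was compared with their expression. They lie on chromosomes 2 (1 gene), 3 (3 genes), 4 (4 genes) and 5 (2 genes), while 6 of the 16 others are on chromosome 1. AT4G11180, AT4G11190 and AT4G11210 follow each other on 1 strand with no coding gene between them. The first had no read, and the other pair shares 86.8% of its aligned coding bases with an identical run of at most 32. Summed, AT4G11190 and AT4G11210 had 548 and 589 counts in control and 145 and 189 in the mutant, so the difference of the sum does not hinge on how reads were split between them.

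AT3G13650, AT3G13660 and AT3G13662 form a second row of 3 on 1 strand, in which only AT3G13650 was expressed. AT3G13660 had 0 and 2 reads in control and 1 and 0 in fip1-2. AT2G21100 is followed by AT2G21110, with 1 coding gene between them, and AT2G21110 had 1 read in 1 control library and none elsewhere. AT5G42500 and AT5G42510 are likewise parted by 1 coding gene, and 15 coding genes lie between AT5G42510 and AT5G42655. The remaining 4 of the 10, AT4G38700, AT4G13580, AT3G24020 and AT3G55230, have no dirigent gene beside them.

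The genes around the 10 held both rises and falls. Of the 90 nearest tested genes, 5 on each side of each gene without dirigent genes, limma called 31 as higher and 16 as lower, beside 27.0% and 26.8% of all genes, and their median log2 fold change was 0.06. Since the 10 were chosen for their low values, few neighbours could lie lower still, and nothing is read from their order. Some neighbours fell too. The 4 tested genes that follow AT3G24020 were all called as lower, at -0.40, -0.40, -0.45 and -0.33 beside its own -0.58. The next one, AT3G24080, was called as higher at 0.42. Of the 10 neighbours of AT3G24020, 4 were called as higher and 4 as lower. AT4G11175, the nearest tested gene before AT4G11190, fell from 629 and 640 to 384 and 366 (log2 fold change -0.75). AT5G42530, an uncharacterised gene near AT5G42500, fell from 1707 and 2332 to 514 and 453 (log2 fold change -2.04 ± 0.11 SE, limma adjusted p = 1.84e-09).

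Among the neighbours with the smallest p, MRN1 (AT5G42600), the marneral synthase gene of triterpene synthesis, rose from 406 and 410 to 1312 and 1140 (log2 fold change 1.58 ± 0.07 SE, limma adjusted p = 6.29e-10). RDR2 (AT4G11130), an RNA-dependent RNA polymerase gene of the small RNA pathway, lies near AT4G11190 and rose from 163 and 144 to 333 and 346 (1.14 ± 0.11 SE, limma adjusted p = 5.98e-07). AT3G55160, near AT3G55230, rose with a log2 fold change of 1.00. AT4G13590 shares 11.8% of the length of AT4G13580 on the opposite strand, and it was not called (-0.13 ± 0.06 SE, limma adjusted p = 0.0887).

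**Figure D3:**
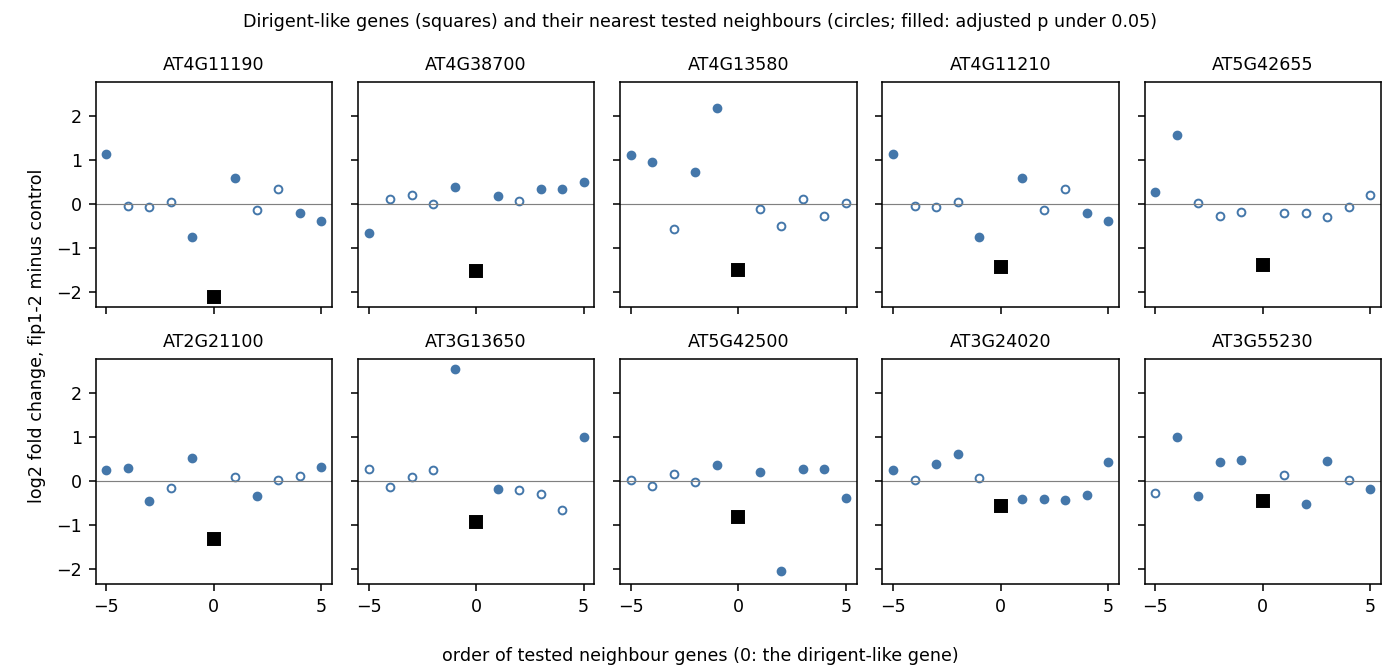
Log2 fold change, fip1-2 minus control, of each of the 10 dirigent-like genes (square, at 0 on the axis of gene order) and of its 5 nearest tested genes on each side (circles, filled where the adjusted p is under 0.05); AT4G11190 and AT4G11210 are adjacent and share their neighbours. The squares are low by choice, and the circles lie on both sides of 0. Beside AT3G24020, 4 filled circles in a row lie between -0.45 and -0.33, and the next circle on that side lies at 0.42.

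Most genes that make the monolignols rose. Their list of 20, from phenylalanine ammonia lyase to cinnamyl alcohol dehydrogenase, had 13 genes that rose, 1 that fell and 6 that did not pass, beside 27.0% and 26.8% of all genes. The median of the list was 0.30 on the log2 scale. 4CL1 (AT1G51680) and 4CL2 (AT3G21240), for ligases that activate cinnamic acids, rose from 1883 and 2000 to 3373 and 3165 (0.75 ± 0.05 SE, limma adjusted p = 5.00e-08) and from 525 and 529 to 896 and 799. The cinnamoyl-CoA reductase gene CCR1 (AT1G15950) rose from 940 and 915 to 1470 and 1611 (0.73 ± 0.06 SE). FAH1 (AT4G36220), for the ferulate hydroxylase of the branch to sinapyl units, rose from 1714 and 1798 to 2763 and 2833. In these 4 genes the groups were well apart. The single fall was that of CYP84A4 (AT5G04330), from 98.0 and 99.0 to 48.1 and 49.8 (-0.98 ± 0.17 SE, limma adjusted p = 0.000229). It was listed as a close relative of FAH1. The annotation describes it only as a cytochrome P450, so its part in monolignol synthesis is not settled here.

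The lignan reductase genes, whose products act on pinoresinol, the kind of lignan that dirigent proteins direct, were both called as higher. PRR1 (AT1G32100) rose from 397 and 399 to 645 and 688 (log2 fold change 0.74 ± 0.07 SE, limma adjusted p = 1.11e-06). PRR2 (AT4G13660) stood at 883 and 903 in control and at 1017 and 1034 in fip1-2 (0.20 ± 0.06 SE, limma adjusted p = 0.011), and it lost its call with DESeq2 (adjusted p = 0.0955) and without fip1-2 replicate 2 (limma adjusted p = 0.0646).

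Laccases are secreted oxidases that make monolignol radicals. There were 17 genes, of which 15 passed the filter. Of these, limma called 8 as higher and 2 as lower, beside 27.0% and 26.8% of all genes. Their median log2 fold change was 0.24. IRX12 (AT2G38080), also called LAC4 and known from the lignin of stem vessels, rose from 495 and 475 to 837 and 843 (0.79 ± 0.07 SE, limma adjusted p = 2.37e-07). LAC11 and LAC17, its partners in lignification, rose by 0.70 and 0.41 on the log2 scale, and LAC10 by 1.12. The lower calls were LAC3 (-0.18, limma adjusted p = 0.0305) and LAC16 (-0.57, limma adjusted p = 0.0306). DESeq2, which called 7232 genes in all against 10726, called 6 of the 15, all higher, and without fip1-2 replicate 1 limma likewise called 6, all higher.

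Genes of the Casparian strip, listed without dirigent genes, were split between rises and falls. Left out were the dirigent genes linked to the endodermis: AT4G13580, AT3G24020 and AT3G55230 of the 10, and AT2G39430, ESB1 and AT1G07730. Those of the 10 are low by choice. AT2G39430 was called as lower (log2 fold change -0.37), and ESB1 and AT1G07730 did not pass the filter. The list of 20 had 8 higher calls and 7 lower calls, beside 27.0% and 26.8% of all genes, which were thus split between the directions too. Its median log2 fold change was 0.13, and 11 of the 20 carry the listed name in the annotation. SHR (AT4G37650) and SCR (AT3G54220), which specify the endodermis, rose from 337 and 390 to 886 and 960 (1.34 ± 0.08 SE, limma adjusted p = 8.14e-09) and from 565 and 594 to 912 and 833. MYB36 (AT5G57620), the transcription factor that switches on Casparian strip genes, fell from 165 and 177 to 101 and 93.4 (-0.80 ± 0.13 SE, limma adjusted p = 0.000146). The scaffold genes of the strip split, as CASP5 rose by 1.76 and CASP1 by 0.37 on the log2 scale, while CASP4 fell by 1.11. RCI3 (AT1G05260), a peroxidase gene, fell from 1600 and 1719 to 1233 and 1150.

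**Figure D4:**
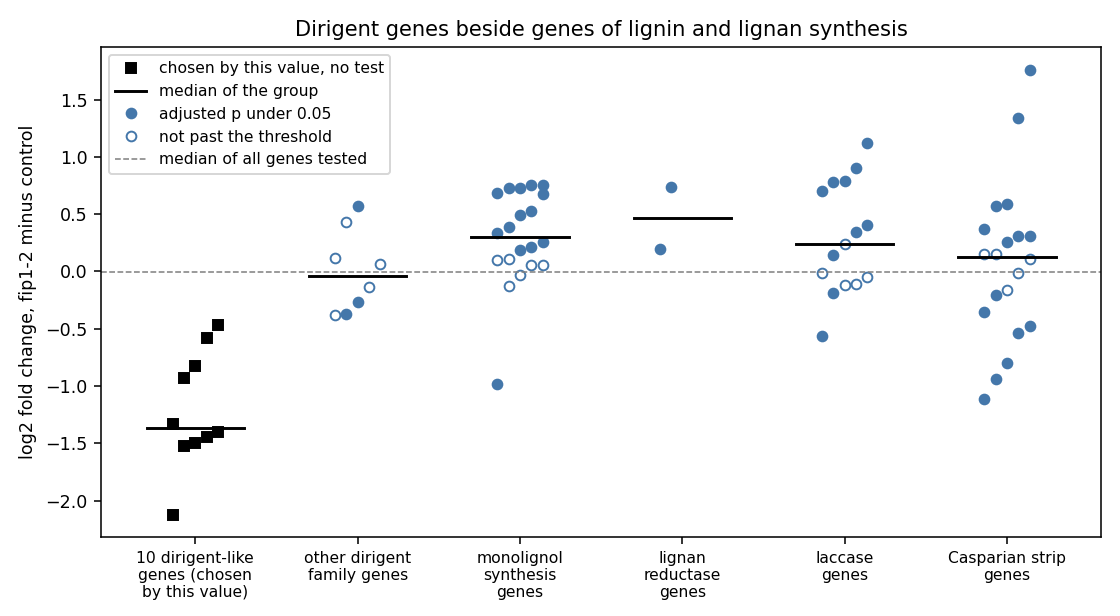
Log2 fold change, fip1-2 minus control, of the 10 dirigent-like genes (squares, chosen by this value), the 8 other family genes tested, 20 monolignol synthesis genes, 2 lignan reductase genes, 15 laccase genes and 20 Casparian strip genes; filled circles have an adjusted p under 0.05, bars are group medians and the dashed line is the median of all genes tested. The median is -1.36 for the 10 and 0.30, 0.47, 0.24 and 0.13 for the 4 lists of lignin, lignan and Casparian strip genes.

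Markers of the tissues in a seedling showed that root and shoot were present in every library, and they did not all move alike. Their calls stand beside 53.8% of all genes called, 27.0% as higher and 26.8% as lower. The 5 shoot markers summed to 343587 and 343960 in control and to 436377 and 455969 in fip1-2, with 3 of 5 called, all higher. RBCS1A was called as higher too by DESeq2 (adjusted p = 0.0329) and in 2 further fits, and PSAD-1 as lower under quantile normalization (-0.17, limma adjusted p = 0.00231). The 5 root hair markers summed to 2301 and 2320 and to 7994 and 6373, with 5 of 5 called higher. Of these, SHV2 lost its call in 4 fits, among them DESeq2 (adjusted p = 0.0836) and that without fip1-2 replicate 1 (limma adjusted p = 0.404). The 6 endodermis markers, CASP1 to CASP5 and MYB36, are also in the Casparian strip list, and they summed to 1768 and 1705 and to 1854 and 1825, with 2 called higher and 3 lower. The 4 seed markers summed to 74.9 and 25.2 and to 3183 and 1190.4, with 4 of 4 called higher. CRU3, which held 2290.5 and 664 of these counts in fip1-2, lost its call under robust variance estimation (limma adjusted p = 0.0993). The part of these shifts in the lower counts of the dirigent-like genes was not tested.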

How the data were processed

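Per the labels, total RNA of whole seedlings was selected with oligo(dT) beads, fragmented and sequenced, while the series text names poly(A) tag sequencing. No step that marks strand is described. CASAVA 1.4, FastQC, HISAT2, HTSeq and edgeR are named in the submitters' processing notes, with no role or order; neither a genome build nor the counting options could be taken from them. The deposited signal is a read count per gene that the authors divided by 1 size factor per library, per the file headers and the values: all values (100%, within 1e-06) are whole multiples of 1 read.

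Values were used as deposited, with limma 3.58.1 in R 4.3.3 (variance trend, genotype as the only term) on log2(value + 2). edgeR 4.0.16 on the recovered reads called 10731 genes against 10726, and DESeq2 1.42.0 was a further alternative. The members and gene lists were chosen with earlier results of these data known. Named list genes are up to 4 per list with the smallest p; AT4G13590, AOS, CYP84A4, AT1G55210, LAC3, LAC16, AT4G11175, the genes after AT3G24020 and the marker genes singled out were chosen after their values were seen. Names, gene order, transcript lengths and coding identity (global alignment, Biopython 1.88) come from RefSeq TAIR10.1, in which 27444 identifiers (99.2%) were found. No coordinates or sequences are printed because the table names no build. A chi-square of the reads of the replicates, averaged over genes, came to 2.97 for control and 2.72 for fip1-2. It does not show whether this spread was technical or lay between cultures.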

Additional observations from a re-analysis of the deposited data

How the results depend on the processing

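The log2 fold changes of the 10 genes, chosen for their negative values, ran under the 14 alternatives from -2.36 to -1.88 for AT4G11190 and from -0.54 to -0.32 for AT3G55230. The filters, robust variance estimation and the replicate block leave a single gene's log2 fold change as it is by construction. The median of -1.36 was -1.21 with a pseudocount of 8, -1.13 with a filter of 50, which removes AT4G38700 and AT5G42655, and -1.16 with the length trend removed; leaving out 1 library gave -1.39 to -1.29. The count of called genes among the 8 other family genes was 3, fell to 1 with DESeq2 and ran from 2 to 5 when 1 library was left out (5 without control replicate 2). That of the laccases was 10, 6 with DESeq2 and 6 to 9 when 1 library was left out. The counts for all genes, monolignol, Casparian strip and neighbouring genes stayed within 1.5 times. With 1 library of a group left out, limma assumes that the lone library varies like the others. With the replicate number as a block, 11004 genes were called in place of 10726. The counts of all other lists were equal except 49 in place of 47 for the neighbours. Same-numbered libraries did not deviate together (r = -0.0117 across genes). With 1 difference per group, this cannot show whether they were grown or prepared together. An exact permutation test of 2 libraries against 2 cannot go below p = 0.333. The depth limits AT4G38700 and AT5G42655 most, with 15 or 16 reads in each fip1-2 library.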

Other observations

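The stretch of chromosome 5 between AT5G42500 and AT5G42655 holds 17 coding genes of the table, of which 12 were tested; 7 were called higher and 2 lower, beside 27.0% and 26.8% of all genes, and the 7 include AT5G42510, whose call rested on 1 library. It was looked at after the values were seen. The genes that follow each other as CYP705A12 (AT5G42580), CYP71A16 (AT5G42590) and MRN1 (AT5G42600), which are known as a cluster for the synthesis of marneral compounds in roots, were all called as higher. CYP705A12 stood at 396 and 421 in control and at 660 and 575 in fip1-2, with a log2 fold change of 0.59 ± 0.08 SE, and CYP71A16 at 575 and 486 and at 726 and 560, with 0.27 ± 0.11 SE. The latter's groups overlapped, while those of MRN1 were the farthest apart of the 3.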
